A study of Mus musculus with 9 samples.

Results

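The genes described here were counted in every control library of a mouse neuroblastoma line and were at or near 0 in every library with a hairpin against Arf1. They were chosen by their measured counts in these same libraries: at least 20 read counts in each of the 3 control libraries and at most 3 in each of the 6 Arf1-deficient libraries. Of 21899 genes in the table, 185 met both limits, 4 of these were set aside by name, and 181 remained as members. Members were 1.59% of the 11393 genes that reached 20 counts in every control library. Because the difference between the groups chose the members, it is given below as a description and was not tested for them. Of the members, 180 are annotated as protein coding, and they lie on 20 chromosomes.

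The libraries are bulk RNA-seq of N2a (Neuro-2a) cells, a mouse neuroblastoma line, with 3 libraries for each of 3 constructs. The shlucif group carries a hairpin against luciferase, a gene that mouse cells lack, and the shArf1-1 and shArf1-2 groups carry 2 different hairpins against Arf1, a small GTPase that recruits coats to Golgi membranes. All 3 hairpins are in a pLKO.1 vector with puromycin resistance, so the control cells share the vector and the selection marker. The laboratory also grew Eoc20, a mouse microglial line, but every label here names N2a only, and nothing in the labels says whether the 3 libraries of a group came from separate cultures, so the spread between them may be technical.

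Macrophages are phagocytes that arise from blood-forming tissue or the embryonic yolk sac, and microglia are the macrophages of the brain. Their identity depends on transcription factors such as PU.1 (encoded by Spi1) and IRF8, on signals from the receptor CSF1R, and on surface receptors that bind microbes, antibodies and lipids and signal through small adaptors with ITAM motifs, tyrosine kinases such as SYK and BTK, and exchange factors such as VAV1. Neuroblastoma cells derive from the neural crest.

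By function, 27 members encode kinases, adaptors and G protein signalling components, and 26 encode receptors that sense microbes, antibodies, lectins, lipids or other immune ligands. A further 18 act in membrane traffic, glycosylation or ubiquitination, 15 in the cytoskeleton or phagocytosis, 14 are proteases, their inhibitors or other secreted proteins, 13 are leukocyte surface or adhesion molecules, and 12 regulate transcription. Channels, transporters and metabolic enzymes account for 10, growth factor and cytokine receptors for 9, lipid handling for 9, chemokines and cytokines for 5, antiviral defence and cell death for 4, and oxidant production for 4, which leaves 15 with other roles. These groups were assigned by hand after the names were known.

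Promoter windows are shown for members whose products are typical of leukocytes, because the window holds the extended PU.1 motif GAGGAAGT or, for Cybb, the PU.1 and IRF composite motif, which is GGAA, any 2 bases, then GAAA. The sequences come from RefSeq on GRCm38.p6, read 5′ to 3′ on the strand of the gene, and capitals mark the motif or its reverse complement. Ctss (cathepsin S, chr3:95526744-95526835, plus strand), Cd53 (a leukocyte tetraspanin, chr3:106790100-106790183, minus strand), Vav1 (chr17:57279049-57279148, plus strand), Rasgrp3 (a Ras exchange factor, chr17:75435815-75435914, plus strand), Havcr2 (the receptor TIM-3, chr11:46454883-46454980, plus strand) and Cybb (the NADPH oxidase subunit gp91phox, chrX:9469275-9469361, minus strand) read as follows.
Ctss: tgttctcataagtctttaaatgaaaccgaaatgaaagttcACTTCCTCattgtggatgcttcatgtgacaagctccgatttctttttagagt
Cd53: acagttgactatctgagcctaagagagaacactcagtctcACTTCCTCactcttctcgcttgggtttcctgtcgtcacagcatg
Vav1: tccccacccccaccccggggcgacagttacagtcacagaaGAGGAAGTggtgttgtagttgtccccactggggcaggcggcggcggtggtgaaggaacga
Rasgrp3: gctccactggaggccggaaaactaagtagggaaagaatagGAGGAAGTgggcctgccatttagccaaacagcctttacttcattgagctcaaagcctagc
Havcr2: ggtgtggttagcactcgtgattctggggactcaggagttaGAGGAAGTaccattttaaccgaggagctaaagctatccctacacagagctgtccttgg
Cybb: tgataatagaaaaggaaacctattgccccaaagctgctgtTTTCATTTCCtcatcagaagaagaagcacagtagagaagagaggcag

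RefSeq windows of 250 bases before to 50 bases after the start were found for 133 of the 181 members, 166 windows in all, and for 9777 of the 12267 other genes that passed the filter on low counts. GAGGAAGT, searched on both strands, was in 15 member windows of 13 genes, or 9.04%, against 2.83% of 12577 windows of other tested genes and 3.20% of all 32851 windows. Its core GAGGAA, which every GAGGAAGT also contains, was in 38.0% of member windows and 26.2% of the other tested ones. The AP-1 motif TGANTCA was in 10.2% against 4.99%, and the C/EBP motif TTGCNNAA in 11.4% against 7.94%, with 7.81% and 10.8% of all windows. The NF-kB motif, which is GGGA, any 4 bases, then CC, differed less, at 25.3% against 26.7%, with 20.7% of all windows, and the composite motif was in 1.2% against 2.23%. Motifs of promoters rich in CpG were less frequent in member windows than in those of other tested genes: GGGCGG, bound by Sp1, was in 48.8% against 62.5%, and GCGCATGC, bound by NRF1, in 1.81% against 5.21%. Of all windows 35.7% held GGGCGG and 2.71% GCGCATGC, so for GGGCGG the direction depends on the background. The median number of CpG sites was 11 in member windows, 20 in windows of other tested genes and 7 in all windows, and 26.5% of member windows had fewer than 5, against 9.17% of those of other tested genes. These shares describe letters in a window, several windows belong to the same gene, and no binding was measured.

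**Figure D1:**
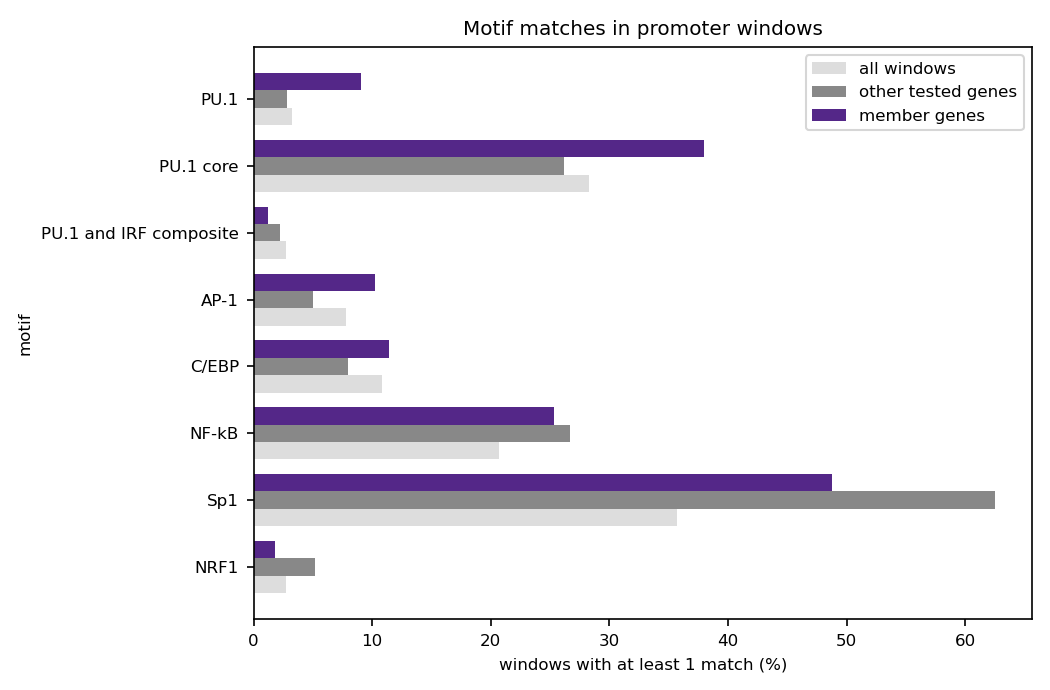
Share of promoter windows (horizontal axis, percent) with at least 1 match on either strand to each of 8 motifs, for 166 windows of member genes, 12577 windows of other tested genes and all 32851 windows. The extended PU.1 motif is at 9.04% of member windows and 2.83% of other tested windows, and the Sp1 motif at 48.8% and 62.5%.

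The libraries held 13381570 to 13786986 counts in shlucif, 11182479 to 15594615 in shArf1-1 and 13463280 to 14659400 in shArf1-2. Arf1 itself stood at 316 to 328 FPKM (fragments scaled to gene length and library total) in shlucif, 127 to 130 in shArf1-1 and 157 to 171 in shArf1-2, so every Arf1-deficient library was below every control. Over all genes that passed the filter, 32.9% were called lower and 31.6% higher in Arf1-deficient cells, by edgeR's quasi-likelihood test at an adjusted p under 0.05 over 12448 genes. Scaled by library size only, 3626 genes were called lower and 4555 higher, against 4094 and 3933 with the scaling used here, so which direction is the more frequent depends on the scaling. In 26.7% of them every Arf1-deficient library lay below every shlucif library; the rule for members fixes this for all 181, and nothing is read from that count.

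Member genes took 0.149%, 0.143% and 0.127% of all counts in shlucif 1, 2 and 3. In the Arf1-deficient libraries they took 0.000445% to 0.000609%, or 61 to 82 counts in a library, spread over 37 to 54 members. This was 0.319% to 0.437% of the mean share in shlucif. The 3 controls are close together, the 6 Arf1-deficient libraries are close together, and the hairpins overlap. In bulk RNA, fewer cells of a type and less RNA per cell cannot be told apart.

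**Figure D2:**
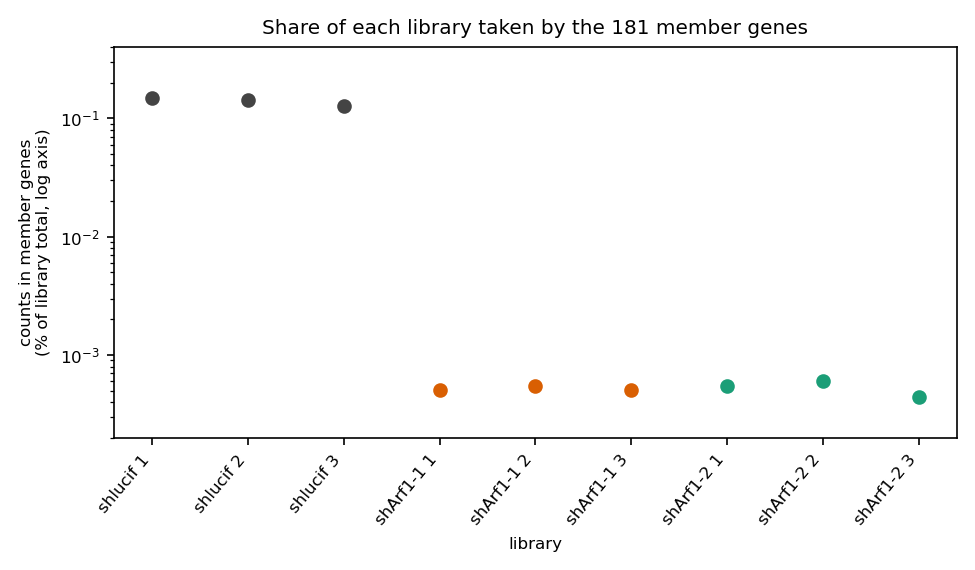
Counts in the 181 member genes as a percentage of each library's total, on a logarithmic axis, with 1 point per library. The shlucif libraries sit between 0.127% and 0.149% and the 6 Arf1-deficient libraries between 0.000445% and 0.000609%.

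The opposite pattern was absent: 0 genes had at least 20 counts in each of the 6 Arf1-deficient libraries and at most 3 in each shlucif library. The opposite rule asks for high counts in 6 libraries rather than 3. The 181 members counted 18957 ± 1605 (SD, n = 3) reads together in shlucif.

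**Figure D3:**
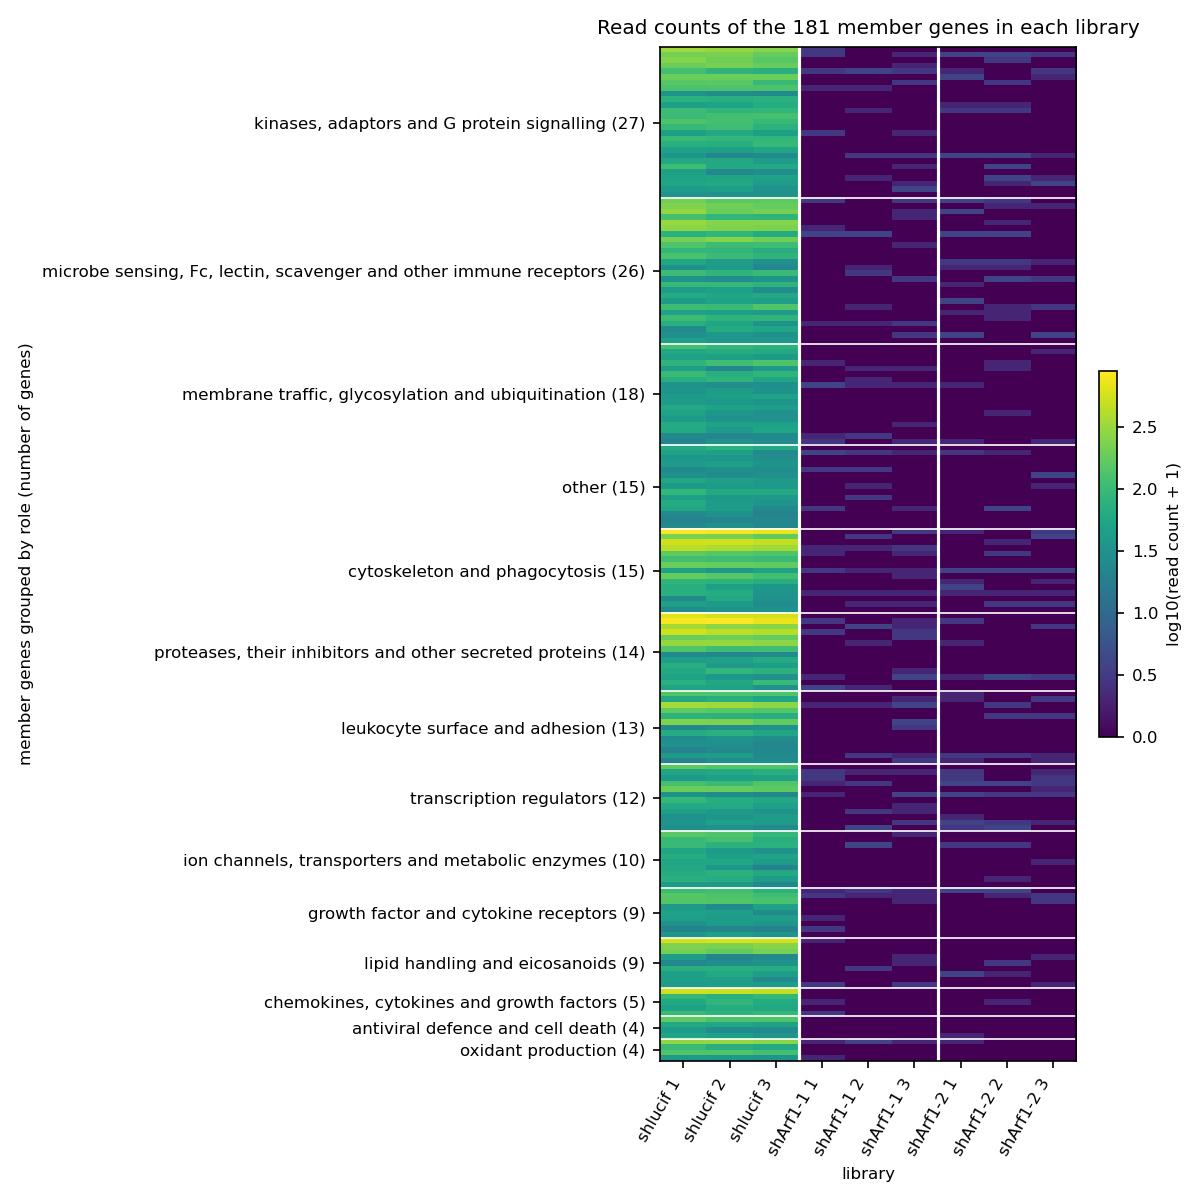
Read counts of each of the 181 member genes (rows, grouped by role, with the number of genes in brackets) in each of the 9 libraries (columns), coloured by log10(read count + 1). Rows are bright in the 3 shlucif columns, with 20 to 888 counts, and dark in the other 6, with 0 to 3.

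Most members were weakly expressed in shlucif. Their median was 0.897 FPKM, and the range ran from 0.104 to 48.7. The median was 7.86 for all 11393 genes with at least 20 counts in each shlucif library, members included. Only 6 reached 10 FPKM, 80 lay between 1 and 10, and 95 lay below 1. In counts, the median of the means was 57, with 73 members under 50 and 24 over 200, so many single values carry a sizeable counting error. The coefficient of variation over the 3 shlucif libraries had a median of 15.2%.

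The transcription regulators include factors that define myeloid cells. Spi1 (chr2:91082390-91115756, plus strand), which encodes PU.1, had 162, 138 and 139 counts in shlucif 1, 2 and 3 and 0 in all 6 Arf1-deficient libraries. Its level in shlucif was 3.99 ± 0.32 FPKM (SD, n = 3), at least 40.1-fold above a floor of 3 counts per library. Spi1 was the highest of the 12 regulators.

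Irf8, which acts with PU.1 in monocytes, macrophages and B cells, had 118, 100 and 140 counts in shlucif against 0 to 3 in the others. Mef2c, a factor of muscle, neurons and microglia, had 191, 184 and 159, with 1 count in 1 Arf1-deficient library and 0 in 5. Ikzf1, a lymphoid and myeloid regulator, had 60, 63 and 45, and Runx1, needed for blood stem cell formation, had 33, 48 and 40. Runx1 was counted in 4 of the 6 Arf1-deficient libraries, with 1 to 3 reads. Lmo2, a partner of blood cell factors, and Bcl3, an NF-kB cofactor, stood at 1.5 ± 0.22 and 0.782 ± 0.158 FPKM. The group is not purely myeloid in known function: Ankrd1 (54, 61 and 69 counts), a gene best known from muscle, and Hmga2 (91, 66 and 56), a chromatin protein of embryonic and tumour cells, belong to it too.

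Growth factor and cytokine receptors were led in level by Tnfrsf26 at 2.20 ± 0.46 FPKM. Csf1r, the receptor that macrophages need to survive, had 147, 134 and 111 counts in shlucif and 0 to 2 in each Arf1-deficient library, 1.66 ± 0.23 FPKM. The ratio of the pooled levels was 112, with a 95% exact counting interval of 53.8 to 280. Such ratios and intervals describe counting error only and test nothing, since the limits that chose the members already set a large ratio. Genes of the GM-CSF receptor were also members, with Csf2ra at 51, 45 and 24 counts and Csf2rb at 143, 140 and 126. The related gene Csf2rb2 had 32, 41 and 34. Il2rg, the common gamma chain, had 38, 25 and 48, and Il7r had 45, 42 and 43. In Csf2ra the third control lay well below the other controls, and in Il2rg the second did. Csf2rb and Csf2rb2 are neighbours with closely similar sequences, so the split of reads between them is uncertain.

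Among receptors for microbes, antibodies and lipids, the ITAM adaptors stood highest. Tyrobp (DAP12), the partner of TREM2, had 207, 156 and 160 counts in shlucif, and 2, 0 and 2 in shArf1-1 and 3, 2 and 0 in shArf1-2. Fcer1g, the shared Fc receptor gamma chain, had 237, 201 and 176 counts, and 1 in each of 2 Arf1-deficient libraries. They stood at 19.2 ± 2.9 and 17.2 ± 2.5 FPKM, and for both the first control was the highest.

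Cd14, the co-receptor for bacterial lipopolysaccharide, had 296, 195 and 215 counts, 9.97 ± 2.13 FPKM. Trem2, a lipid receptor of microglia and other macrophages, had 314, 254 and 250 counts, with 1 read in 1 Arf1-deficient library. Clec4d, a C-type lectin for fungal and mycobacterial glycolipids, had 118, 87 and 82 counts and stood at 4.39 ± 0.84 FPKM. In each of these the first control was above the other controls.

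Sirpa, which binds CD47 and restrains phagocytosis, stood at 3.70 ± 0.26 FPKM. The scavenger receptors Msr1 (104, 84 and 98 counts) and Cd36 (136, 105 and 106 counts), the co-stimulator Cd86 (87, 86 and 67) and the complement receptor C3ar1 (65, 55 and 59) were lower. Fcgr3, a low-affinity IgG receptor, kept the most reads of the group: 3, 3 and 0 in shArf1-1 and 3, 3 and 0 in shArf1-2, against 76, 87 and 64 in shlucif. Its pooled ratio was 37.8 (95% exact counting interval 21.2 to 74.3). Clec4d and Clec4e, and Lilr4b and Lilrb4a, are neighbouring pairs of related genes, and reads could have been split between partners. The group also holds Cd28, known as a T cell co-stimulator, at 94, 92 and 81 counts.

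Signalling genes downstream of these receptors form the largest group. Syk, the kinase that docks on phosphorylated ITAMs, had 135, 115 and 94 counts in shlucif and 0 in all 6 Arf1-deficient libraries. Btk, a Tec kinase of B cells and myeloid cells, had 114, 81 and 72, with 0 to 3 in the others. Vav1, an exchange factor of blood cells for small GTPases, had 212, 225 and 180, with 2, 0 and 1 in shArf1-1 and 3, 3 and 2 in shArf1-2. For Syk and Btk the first control was the highest and for Vav1 the second.

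The most abundant of the group was Plk2, a kinase of the polo-like family that is not specific to leukocytes, at 4.85 ± 0.61 FPKM. Pik3r5, a regulatory subunit of phosphoinositide 3-kinase gamma, stood at 2.69 ± 0.63, Rasgrp3 at 2.49 ± 0.30 and Prkch, a protein kinase C isoform, at 1.87 ± 0.02. Prkch was nearly even over the controls, with 195, 189 and 190 counts.

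Leukocyte surface molecules were led by Cd53, with 140, 136 and 131 counts and 1 read in 1 Arf1-deficient library. Ptprc, which encodes the leukocyte common antigen CD45, had 241, 231 and 175 counts, with 3 reads in 1 shArf1-1 library and 0 in the other 5. Cd52, a small glycoprotein of leukocytes, had 60, 71 and 54. Cd44, the hyaluronan receptor found on many cell types, had 346, 328 and 272. Itgam, which encodes CD11b, was low, at 26, 32 and 27 counts and 0 in all Arf1-deficient libraries. The group is not purely of leukocyte molecules: Flrt2, Slitrk5, Ctnnd2, Fat3 and Plxna2 belong to it too. Plxna2, a semaphorin receptor of neurons and other cells, is the lowest member by FPKM, at 0.104.

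Secreted proteins and proteases included 2 of the 3 highest members. Ctss (chr3:95526786-95556403, plus strand), the cysteine protease that trims the invariant chain in antigen-presenting cells, had 649, 564 and 573 counts in shlucif and 0 in each Arf1-deficient library. This is 32.2 ± 2.1 FPKM and at least 163-fold above the floor, the highest bound of the 74 members at 0 in every Arf1-deficient library. Plau, the urokinase-type plasminogen activator, had 836, 888 and 735 counts, with 0 to 2 in the others, a pooled ratio of 983 (95% exact counting interval 421 to 3031).

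Trf, the iron carrier transferrin, stood at 6.53 ± 1.03 FPKM, Emilin2, an extracellular matrix glycoprotein, at 6.25 ± 0.85, and Srgn, the proteoglycan of secretory granules in blood cells, at 6.24 ± 0.40. Ctsc, which activates granule proteases, had 305, 299 and 271 counts, and Ctsh, another cathepsin, had 138, 107 and 109.

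Chemokines and cytokines held the highest member. Ccl3 (chr11:83647844-83649355, minus strand), which attracts monocytes and T cells, had 539, 511 and 473 counts and 0 in all 6 Arf1-deficient libraries. At 48.7 ± 3.0 FPKM it ranked 968 by FPKM among all genes of shlucif, and its level was at least 139-fold above the floor. Its neighbour Ccl4 had 92, 74 and 92 counts, also with 0 in the other 6.

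Tnf, a central inflammatory cytokine, had 61, 87 and 64 counts and 1 read in each of 2 Arf1-deficient libraries. Il1rn, the antagonist of interleukin-1, had 48, 66 and 57 and 0 elsewhere, and Igf1, a growth factor that macrophages secrete, had 97, 82 and 91. Of these chemokines and cytokines, Ccl3 alone exceeded 10 FPKM.

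Genes of the cytoskeleton and phagocytosis took 15% of all member counts in shlucif. Lcp1 (L-plastin), an actin bundler of leukocytes, had 883, 823 and 725 counts, and 0 to 2 in the others. Hcls1, a substrate of SYK, had 228, 221 and 168, Dab2, an endocytic adaptor, 546, 549 and 477, and Myo1e, a membrane-bound myosin, 439, 384 and 333. Was, the Wiskott-Aldrich actin regulator, is one of 2 members counted in all 6 Arf1-deficient libraries, at 1 to 3 reads, against 48, 36 and 49.

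Oxidant production was represented by 3 subunits of the phagocyte NADPH oxidase and an inducible nitric oxide synthase. Cyba (p22phox) stood at 20.01 ± 1.06 FPKM with 290, 291 and 267 counts, Cybb (gp91phox) at 1.66 ± 0.18 with 138, 140 and 116, and Ncf4 (p40phox) at 2.75 ± 0.68 with 98, 67 and 62. Cybb and Ncf4 were at 0 in all 6 Arf1-deficient libraries, and Cyba had 0 to 3 reads. Nos2 had 37, 36 and 33 counts in shlucif.

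In lipid handling, Lpl, the lipase that releases fatty acids from lipoproteins, had 561, 584 and 570 counts and a single read in 1 Arf1-deficient library, a pooled ratio of 3429 (95% exact counting interval 615 to 135517). Fabp4, a fatty acid carrier of adipocytes and macrophages, had 236, 225 and 258, and Ptgs2, the inducible cyclooxygenase, 214, 171 and 220, both with 0 elsewhere. Alox5ap, needed for leukotriene synthesis, had 43, 21 and 25 and lay just inside the lower limit. In Lpl and Fabp4 the third control was not the lowest, unlike in most members.

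Remaining groups were low. In membrane traffic Rab7b, a GTPase of late endosomes, was highest at 1.51 ± 0.30 FPKM, followed by the ubiquitin ligase Rnf128 at 1.32 ± 0.12. Transporters and channels were led by Slco4a1 at 1.96 ± 0.50, and the calcium-activated potassium channel Kcnn4 stood at 1.18 ± 0.16. The antiviral and cell death genes included Dap (5.47 ± 0.58) and Pmaip1 (NOXA, 1.49 ± 0.13), and the group of other roles was led by Ppic, a cyclophilin, at 3.5 ± 0.43.

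**Figure D4:**
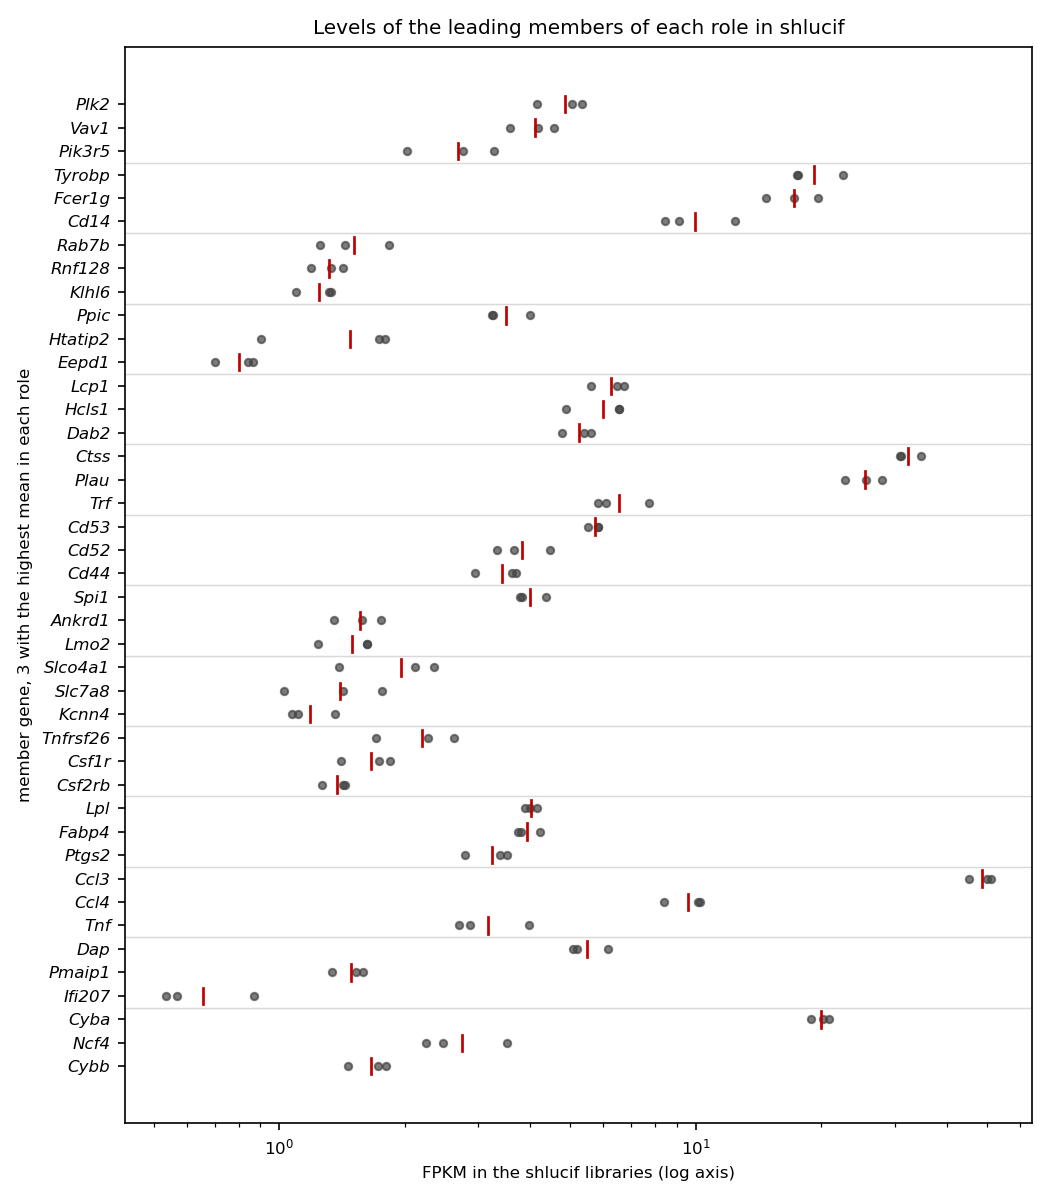
FPKM in the 3 shlucif libraries (points, logarithmic axis) and their mean (red bar) for the 3 members with the highest mean in each role. Ccl3 at 48.7, Ctss at 32.2 and Plau at 25.5 lead, and most other leading members lie between 1 and 7.

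Reads left in the Arf1-deficient libraries were few. Of 181 members, 74 had 0 in all 6 libraries, 112 never exceeded 1, and 34 reached 3. All 6 libraries together held 430 member reads, and 51 members were counted with both hairpins, 32 with shArf1-1 only and 24 with shArf1-2 only. For members at 0 everywhere the bound on the fold ran from 5.76 to 163, with a median of 14.2. For the other 107 the pooled ratio ran from 14.4 (Bcl3) to 3429 (Lpl), with a median of 133.

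The 10 members with the most reads in shlucif took 27.9% of member counts there. In the Arf1-deficient libraries they took 6.74% of member counts, 29 of 430 reads. The rule for members caps the reads of each member in every Arf1-deficient library, however high its count in shlucif. The cap pushes the second share down, so nothing is read from the difference between these shares. The 9 members with 10 or more residual reads (Vav1, Fcgr3, Tnfrsf26, Btk, Was, Irf8, Selenop, Bcl3 and Rassf5) held 23.0% of the residual, 99 reads. These 9 were chosen after their values were seen, and the largest residual was 13 reads, for Was.

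The control libraries were not equal for members. Scaled to library totals, shlucif 3 was the lowest control for 114 of 181 members, 63.0%, against 34.7% of other genes with at least 20 counts in each control. The median ratio of shlucif 3 to shlucif 1 was 0.847 for members and 0.998 for the other genes. For 120 further macrophage genes called lower, described below, that ratio was 0.912. Examples are Maoa, a monoamine oxidase, at 59, 34 and 20 counts, and Csf2ra at 51, 45 and 24.

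Limits of the rule cut through related genes. Just inside the lower limit lay Csf3r, the G-CSF receptor, at 20, 21 and 20 counts, and Rassf5 at 35, 21 and 25. Just outside lay C1qb, a chain of complement C1q, at 30, 32 and 16, Fli1, a blood and endothelial factor, at 20, 17 and 28, and Casp1 at 19, 30 and 24. By the other limit, Adgre1 (F4/80) fell out at 212, 192 and 189 counts because 1 Arf1-deficient library had 4 reads, and Mpeg1, a pore-forming protein of macrophages, fell out at 176, 171 and 156 with 2 to 4. In all, 30 genes missed only by a lowest control count of 15 to 19, and 39 only by a highest Arf1-deficient count of 4 or 5.

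Annotation terms of the deposited table were counted over the members. Of 176 annotated members, 18 carry immune response, 10.2%, against 0.552% of 11781 other tested genes, and 13 carry positive regulation of tumor necrosis factor production, 7.39% against 0.458%. Plasma membrane was given to 44.9% of members against 19.98%, extracellular space to 13.6% against 4.41%, and nucleus to 23.9% against 39.5%. Of 108 members with a pathway, 20 belong to Pathways in cancer, 18.5% against 7.11%, and 15 to PI3K-Akt signaling, 13.9% against 4.40%. Less frequent were Osteoclast differentiation (13, 12.04% against 1.59%), Phagosome (11, 10.2% against 1.88%) and Hematopoietic cell lineage (11, 10.2% against 0.548%). Positive regulation of transcription by RNA polymerase II was given to 20 annotated members, 11.4% against 7.09%. The terms given are a selection, and other frequent terms are not specific to immune cells. No enrichment test was run, since the members were chosen on these data.

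Members lie scattered over the genome, with 7 neighbouring pairs within 100 kilobases on GRCm38. They are Ccl3 and Ccl4, Lilr4b and Lilrb4a, Clec4d and Clec4e, Csf2rb2 and Csf2rb, Ncf4 and Csf2rb2, Dab2 and Fyb, and Radx and Rnf128. The smallest gap was 4253 bases, between Lilr4b and Lilrb4a.

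Marker lists for cell types were compared with the members. Of 287 genes on 8 macrophage lists 286 were in the table, and 67 of these were members; 0 members stood only on one of the 14 lists of other cell types, and 114 members were on no list. The macrophage receptor list had 26 members of 81 genes, the signalling and leukocyte cytoskeleton list 18 of 65, and the transcription factor list 6 of 23 (Ikzf1, Irf8, Mef2c, Nfatc1, Runx1 and Spi1). Summed over the 55 genes of the receptor list that are not members, FPKM ran from 181 to 193 in shlucif and lay between 91.4 and 98.6 with either hairpin.

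Macrophage genes outside the members were mostly lower too. Of 219 such genes, 80 were too low to test, 120 of the 139 tested were called lower in Arf1-deficient cells and 6 higher, against 32.9% and 31.6% of all tested genes. The median log2 fold change was −1.86, and 0.00 over all tested genes. The filter lets a gene pass on the controls alone, so genes seen only there could only be lower. When every library needed 10 counts, 67 were called lower and 5 higher. Over the whole table that filter gave 3595 lower and 3656 higher, so 50.4% of its calls were higher. The numbers tested under that filter are not given here, so shares of tested genes cannot be compared. Of the 120, 50 had a log2 fold change below −3, and 28 lay between −1 and 0. An example with a large change is Spp1 (osteopontin), at 22641, 20594 and 19663 counts in shlucif against 3 to 10. Its log2 fold change was −11.69 ± 0.10 (SE). Cd68, a lysosomal glycoprotein of macrophages, had 1050, 938 and 849 counts against 2 to 7 (−7.74 ± 0.16). Both passed the filter on the controls alone and could only be lower, so their values are a description.

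The size of the change varied widely among the other genes of these lists. C1qb had 30, 32 and 16 counts in shlucif and 0 reads in all 6 Arf1-deficient libraries. It passed the filter on the controls alone, so the size of its fall was not measured. Apoe, the lipid carrier apolipoprotein E, fell by 3.48 (SE 0.10, adjusted p = 8.23e-16), Ccl2 fell by 2.64 (SE 0.18, adjusted p = 2.28e-10) and Irf5 fell by 2.06 (SE 0.21, adjusted p = 5.04e-07). All 19 tested genes of the lysosomal list outside the members were called lower, against 32.9% of all tested genes. Their median log2 fold change was −1.45. Some genes of that list changed less: Ctsz fell by 0.93 (SE 0.05, adjusted p = 2.82e-11), Psap fell by 0.56 (SE 0.05, adjusted p = 2.59e-09) and Lgmn fell by 0.27 (SE 0.05, adjusted p = 0.000128). The 6 called higher were Tmem119, Mrc1, Emb, Tnfsf13b, Arhgap30 and Mgll. Emb (log2 fold change 0.15) lost its call without shArf1-1 replicate 1 or 3 or shlucif replicate 1 or 2, and Mrc1 (1.11) without shlucif replicate 2 or 3. Tmem119, a microglial surface protein, had 31 to 32 counts in shlucif and 47 to 101 in the Arf1-deficient libraries, with a log2 fold change of 1.28 (SE 0.20, adjusted p = 1.82e-05).

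**Figure D5:**
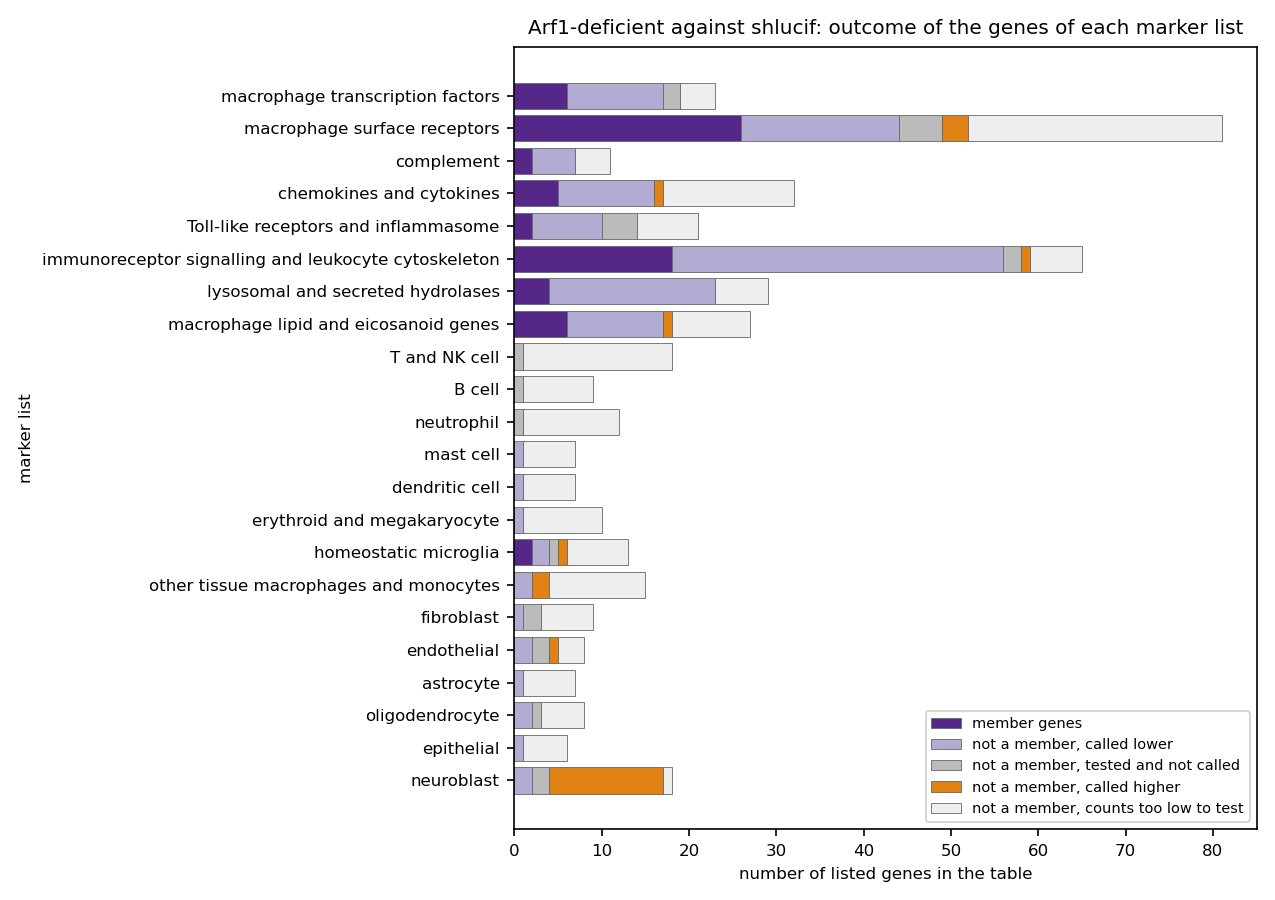
Number of genes in the table from each of 22 marker lists (horizontal axis), split into members, other genes called lower, called higher or tested and not called in Arf1-deficient against shlucif libraries (edgeR quasi-likelihood test), and genes too low to test. The receptor list holds 26 members and the signalling list 18, and apart from 2 on the homeostatic microglia list the lists below the macrophage ones hold none.

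Of 13 markers of resting microglia, 6 were hardly counted. Besides the members Csf1r and Trem2, P2ry12, P2ry13, Cx3cr1, Siglech, Gpr34 and Slc2a5 had at most 3 counts in every library. Olfml3 was counted at 281 to 322 in shlucif and 261 to 359 in the others, with an adjusted p of 0.469. Of the 4 genes tested outside the members, 2 were called lower, 1 higher and 1, Olfml3, was not called. Of all tested genes 32.9% were called lower and 31.6% higher. Summed FPKM of the 13 markers, members included, was 62.7 to 68.7 in shlucif and 26.3 to 29.5 in the Arf1-deficient libraries. On the list of other tissue macrophages and monocytes, Cd163, Lyve1, Ccr2, Ly6c2, Vsig4, Marco, Siglecf, Timd4, Folr2 and Ms4a7 had at most 3 counts everywhere, while Pf4, a platelet and macrophage chemokine, fell by 3.43 (SE 0.27, adjusted p = 2.4e-09). Of the 4 genes of that list that could be tested, Stab1, a scavenger receptor, also fell by 1.66 (SE 0.36, adjusted p = 0.000549), while F13a1, a coagulation factor subunit, was higher by 1.71 (SE 0.32, adjusted p = 0.000112) and Mrc1, the mannose receptor, by 1.11 (SE 0.42, adjusted p = 0.0262). Only 2 of the 15 genes of that list had at least 20 counts in each shlucif library, so not all of these 4 changes start from well-counted controls.

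Most lymphocyte, granulocyte, mast cell and dendritic markers were too low to test. At most 3 counts in every library were found for 11 of 18 T and NK cell genes, including Cd3e, Cd3g and Cd8a, 5 of 9 B cell genes, including Ms4a1, 10 of 12 neutrophil genes, 6 of 7 mast cell genes and 5 of 7 dendritic cell genes. The lymphoid kinase Lck was at 227 to 305 counts in shlucif and at 177 to 335 in the others (adjusted p = 0.472), and its log2 fold change was −0.32 with the first hairpin (adjusted p = 0.0125) and 0.071 with the second (adjusted p = 0.589). Pax5 was at 215 to 239 and 181 to 332 (adjusted p = 0.463). The mast cell gene Hdc fell by 1.17 (SE 0.29, adjusted p = 0.00162). The dendritic gene Zbtb46 fell by 0.22 (SE 0.08, adjusted p = 0.0286) and lost its call without shlucif replicate 1 or 2. Taken by hairpin, Zbtb46 was called lower with shArf1-1 but not with shArf1-2. Summed FPKM of the T and NK cell list was 6.71 to 8.70 in shlucif and 6.18 to 8.85 in the Arf1-deficient libraries, which overlap.

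Single markers of stromal, neural and other cell types fell too. Of the fibroblast genes 6 of 9, of the endothelial 3 of 8, of the astrocyte 5 of 7, of the oligodendrocyte 4 of 8, of the epithelial 4 of 6, and of the erythroid and megakaryocyte 5 of 10 had at most 3 counts in every library. The astrocyte marker Aldh1l1 fell by 2.91 (SE 0.38, adjusted p = 1.98e-06), the fibroblast collagen Col1a1 fell by 1.71 (SE 0.34, adjusted p = 0.000289), and the megakaryocyte integrin Itga2b fell by 1.29 (SE 0.19, adjusted p = 1.35e-05). The keratin Krt8 fell by 0.87 (SE 0.29, adjusted p = 0.0149) and lost its call without shlucif replicate 2. Taken by hairpin, Krt8 was called lower with shArf1-1 but not with shArf1-2. Of 3 oligodendrocyte genes tested 2 were lower, and of 5 endothelial genes 2 were lower and 1, Vwf, was higher by 1.11 (SE 0.17, adjusted p = 1.11e-05). Of all tested genes 32.9% were lower and 31.6% higher, and lists this short cannot be told from those shares. Of the cell line's own 18 neuroblast markers, 16 reached 20 counts in each shlucif library, and Nefl had at most 3 counts everywhere. In Arf1-deficient cells 13 of 17 tested neuroblast genes were called higher and 2 lower, against 31.6% and 32.9% of all tested genes. These counts were also 13 and 2 with library size only, upper quartile scaling and DESeq2. Tubb3, neuronal tubulin, stood at 410 ± 25 FPKM in shlucif, 694 ± 76 in shArf1-1 and 695 ± 15 in shArf1-2. Summed over the 18 neuroblast genes, FPKM was 1780 to 1811 in shlucif and 2289 to 2529 in the Arf1-deficient libraries. The part of macrophage or microglial RNA in the member counts was not tested, and a difference in cell content between the groups cannot be told apart from the hairpins in this design.

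Both hairpins are compared with the same 3 shlucif libraries and so are not independent. Of the 139 tested macrophage genes outside the members, 122 were called lower with shArf1-1 and 119 with shArf1-2. Over all tested genes, 32.9% were called lower with both hairpins together. In fits of 1 hairpin and shlucif only, 4209 genes of the whole table were lower and 4031 higher for shArf1-1. For shArf1-2 these were 4135 and 3965. The 139 include genes that passed the filter on the controls alone, which could only be lower. Between the hairpins 16 differed, 11.5% of the 139, against 14.4% of all tested genes, and 10 differed without shArf1-1 replicate 3 or without shArf1-2 replicate 3. Among members, shArf1-1 libraries held 61 to 79 reads in all and shArf1-2 libraries 63 to 82.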

How the data were processed

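RNA-seq of 9 N2a libraries was analysed. The authors deposited 1 table of whole-number read counts and FPKM values per gene and library, from oligo(dT)-selected RNA. FPKM were recomputed from counts, gene lengths and totals within a relative deviation of 1.9e-07. The submitters' processing notes name mm10. The aligner and counter are not given in the sources used here, nor is strandedness, so reads of overlapping or near-identical genes may be shared. Annotation pieces from 8 broken lines were skipped, and columns named shArf2 were read as shArf1-2. Coordinates are GRCm38, by gene identifier.

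Counts were tested with edgeR 4.0.16 (filterByExpr, TMM, glmQLFit and glmQLFTest) in R 4.3.3, with a Benjamini-Hochberg threshold of 0.05 over all tested genes, after a run on simulated data. DESeq2 1.42.0, limma 3.58.1 on log2(FPKM + 1) and log2(FPKM + 0.1), 2 scalings, 2 filters, a replicate block, each hairpin alone and leaving out each library were alternatives. Totals of 11182479 to 15594615 counts set the precision, and 3 counts were taken as the floor.

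The members and marker lists were chosen with earlier results of these data known. Members named are up to 6 of highest FPKM per role, the 5 with most counts and those nearest the limits. Other genes named are called macrophage genes of highest FPKM, up to 4 a list, and up to 4 genes with 20 or more counts in other lists. Names beyond these were chosen after values were seen, and a few genes that the rule would name are not reported here. Correlations of libraries with the same replicate number ran from −0.082 to 0.094, so the numbers were not taken as pairs.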

Additional observations from a re-analysis of the deposited data

Results flagged for a closer look

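Among the named genes outside the members, 14 changed by different amounts with the hairpins, by edgeR's test of the difference at an adjusted p under 0.05. In log2 units, shArf1-2 minus shArf1-1, the macrophage list genes gave 0.78 for Irf5, 0.25 for Cd40, 0.31 for Csf1, 0.36 for Prkcd, 0.37 for Coro1a, 0.23 for Plin2 and −0.30 for Fabp5. All of these macrophage list genes but Fabp5 were lowered more by shArf1-1. Genes of other lists gave 0.40 for Lck, 0.69 for Itga2b, −0.34 for Olfml3, 1.41 for Col1a1, 0.36 for Cnp, 1.104 for Krt8 and −0.47 for Chgb. These genes are not members, and members were too close to 0 with either hairpin for such a comparison. The cause of the differences was not tested.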

How the results depend on the processing

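The number of members depends on its limits: 255 with at least 10 counts in each shlucif library, 89 with at least 50, 74 with 0 in every Arf1-deficient library, 274 with at most 10, 157 with counts scaled to the median total, and 181 to 194 when a library was left out. Their share of shlucif counts, 0.139% on average, was 0.151% from FPKM and 0.135% to 0.146% when a control was left out. Genes called over the whole table ran from 7251 to 8372 over all alternatives, and 7256 to 8039 when a library was left out. Macrophage genes outside the members called lower were 67 rather than 120 when every library needed 10 counts, since fewer genes were then tested, and 117 to 123 without single libraries. Those called higher were 4 to 6, and those that differed between the hairpins 10 to 16, without single libraries, with 10 both without shArf1-1 replicate 3 and without shArf1-2 replicate 3. With the replicate block the counts were 7808 called in all, 119 lower, 6 higher and 14 that differed between the hairpins, and the block changed no other call by over 1.5 times; with 9 pairs of libraries the correlations gave no pairing. Of 1106 alternative values of 59 named genes, 1076 kept direction and side of the threshold, 24 lost their call (Fabp5, Zbtb46, Emb, Mrc1 and Krt8) and 2 gained one. Direction turned in 4 values, of genes that were not called with all libraries: Lck 0.076 and Tek 0.12 with shArf1-2 only, Olfml3 0.071 with shArf1-1 only, and Prtn3 0.18 without shlucif replicate 2. Without single libraries Prtn3 ran from −0.39 to 0.18. The cause was not tested. Depth limits members near 20 counts and the 0 to 3 reads left in Arf1-deficient libraries.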
